A study of Mus musculus with 4 samples.

Results

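Mki67, Birc5, Ube2c and Ccnb2 are genes of dividing cells, chosen by name from the deposited expression table. All 4 names were found, among 2979 genes in that table. RNA sequencing compared lung fibroblasts of wild-type BALB/c mice aged 4 weeks, isolated fresh and kept under 2 conditions. The chemokine group (2 libraries, chemokine 1 and chemokine 2) was exposed for 3 hours to the recombinant human proteins CXCL1 (8 nM), CXCL2 (2 nM) and CXCL8 (20 nM), which attract neutrophils. The control group (2 libraries, control 1 and control 2) carried the label control and no other treatment. The labels do not say whether the libraries of a group came from separate mice or cultures, so p-values measure only the spread between these libraries, which may be technical. RNA came from bulk cells, in which fewer dividing cells and less of a transcript per dividing cell cannot be told apart.

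Cells entering mitosis switch on a shared set of genes and clear their products again as they divide. Ccnb2 encodes a B-type cyclin that activates the kinase CDK1 at mitotic entry. Ube2c encodes a ubiquitin-conjugating enzyme of the anaphase-promoting complex, which marks mitotic cyclins and other proteins for destruction. Birc5 encodes survivin, a subunit of the chromosomal passenger complex that corrects chromosome attachment to the spindle. Mki67 encodes Ki-67, a large protein that coats mitotic chromosomes and is the standard histological marker of cycling cells. Many such genes are held down in resting cells by the DREAM complex and driven later by the MYB-MuvB complex and FOXM1, through a short promoter element called the cell cycle genes homology region (CHR). The factor NF-Y binds nearby CCAAT boxes in many of the same promoters.

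The promoters of the 4 genes are shown because many mitotic genes share this promoter type. Each window runs from 250 bases before the RefSeq start (build GRCm38.p6) and is printed up to 10 bases after it, or up to 30 bases into the earliest annotated exon where that comes first. Capitals mark TTTGAA, the letters searched for the CHR, and CCAAT, each on both strands, so that TTCAAA and ATTGG are matches on the opposite strand. The regions are chr9:70421545-70421804 on the minus strand for Ccnb2, chr2:164769679-164769927 on the plus strand for Ube2c, chr7:135716370-135716629 on the minus strand for Mki67 and chr11:117848987-117849246 on the plus strand for Birc5.
Ccnb2: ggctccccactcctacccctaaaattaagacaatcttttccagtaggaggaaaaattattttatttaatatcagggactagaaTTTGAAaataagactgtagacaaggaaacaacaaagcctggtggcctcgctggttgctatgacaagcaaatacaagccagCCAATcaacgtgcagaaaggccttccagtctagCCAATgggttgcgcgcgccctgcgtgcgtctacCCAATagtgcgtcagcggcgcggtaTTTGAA
Ube2c: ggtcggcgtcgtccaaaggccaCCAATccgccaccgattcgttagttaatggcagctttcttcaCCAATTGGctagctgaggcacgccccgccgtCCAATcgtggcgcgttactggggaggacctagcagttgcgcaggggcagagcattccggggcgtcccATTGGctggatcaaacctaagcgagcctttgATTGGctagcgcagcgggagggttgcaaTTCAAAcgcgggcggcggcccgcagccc
Mki67: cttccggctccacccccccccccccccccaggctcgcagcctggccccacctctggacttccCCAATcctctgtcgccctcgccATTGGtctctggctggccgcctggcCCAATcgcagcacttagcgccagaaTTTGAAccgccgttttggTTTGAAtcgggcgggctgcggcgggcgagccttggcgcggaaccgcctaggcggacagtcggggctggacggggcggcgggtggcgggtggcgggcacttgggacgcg
Birc5: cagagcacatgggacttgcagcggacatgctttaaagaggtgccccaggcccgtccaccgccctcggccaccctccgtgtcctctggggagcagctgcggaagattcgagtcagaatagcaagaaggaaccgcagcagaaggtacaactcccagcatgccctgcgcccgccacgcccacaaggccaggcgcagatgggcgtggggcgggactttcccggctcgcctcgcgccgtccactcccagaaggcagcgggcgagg
Ccnb2, Ube2c and Mki67 each held at least 1 TTTGAA and several CCAAT, and Birc5 held neither. Ccnb2 had 2 TTTGAA and 3 CCAAT, Ube2c 1 and 6, and Mki67 2 and 3, in which CCAAT and ATTGG of Ube2c overlap at 1 place. Of 32851 RefSeq windows that run from 250 bases before the start to 50 after it, the span searched here, 17.9% held TTTGAA, 37.4% held CCAAT, and 2.09% held TTTGAA with at least 2 CCAAT. These matches describe letters in a window and not bound sites, and the lack of a match in Birc5 says only that the letters are not in this window.

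The 4 genes did not move together: Mki67 was lower in the chemokine libraries, and Birc5, Ube2c and Ccnb2 were higher. The groups stood apart in 100% of the 2979 listed genes, and 100% of the 2956 tested genes passed an adjusted p of 0.05 by limma. Neither fact therefore sets these 4 genes apart. Mki67 stood at 10.9 and 10.2 RPKM (reads divided by exon length and by the library total) in chemokine libraries 1 and 2, against 15.1 and 15.3 RPKM in control libraries 1 and 2. Both chemokine values lay below both control values, by 4.21 RPKM at the closest, which is 6.35 times the larger gap between replicates. The group means were 10.6 ± 0.468 RPKM in chemokine libraries and 15.2 ± 0.174 RPKM in control libraries (SD, n = 2 each), a ratio of 0.694. Its log2 fold change on the log2(RPKM + 1) scale was -0.49 ± 0.05 (SE), and limma gave an adjusted p of 0.000192.

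Birc5 measured 13.75 and 15.6 RPKM in the chemokine libraries, against 10.8 and 11.4 RPKM in the control libraries. The groups did not overlap, as in every listed gene, and the 2.36 RPKM between them was 1.29 times the larger replicate gap. Birc5 averaged 14.7 ± 1.29 RPKM in chemokine libraries and 11.1 ± 0.405 RPKM in control libraries (SD, n = 2 each), with a log2 fold change of 0.37 ± 0.07 (SE) and a limma adjusted p of 0.000847. Ccnb2 measured 16.1 and 17.1 RPKM in the chemokine libraries, and 13.3 RPKM in each control library. Here too, as in every listed gene, the groups stood apart, by 2.70 times the larger replicate gap, and the control pair was nearly identical. Ccnb2 averaged 16.6 ± 0.73 RPKM in chemokine libraries and 13.3 ± 0.00699 RPKM in control libraries (SD, n = 2 each), with a log2 fold change of 0.30 ± 0.05 (SE) and a limma adjusted p of 0.000784.

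Ube2c had the widest spread of the 4 genes between treated replicates. It measured 22.2 and 27.1 RPKM in the chemokine libraries, against 19.2 and 19.6 RPKM in the control libraries. The groups did not overlap, as in every listed gene, but the 2.61 RPKM between them was 0.528 times the gap between the chemokine libraries. The means were 24.6 ± 3.50 RPKM in chemokine libraries and 19.4 ± 0.26 RPKM in control libraries (SD, n = 2 each), and the log2 fold change was 0.32 ± 0.08 (SE), with a limma adjusted p of 0.00445. Without chemokine 2 the log2 fold change of Ube2c was 0.19 ± 0.05, and without chemokine 1 it was 0.46 ± 0.05 (SE).

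**Figure D1:**
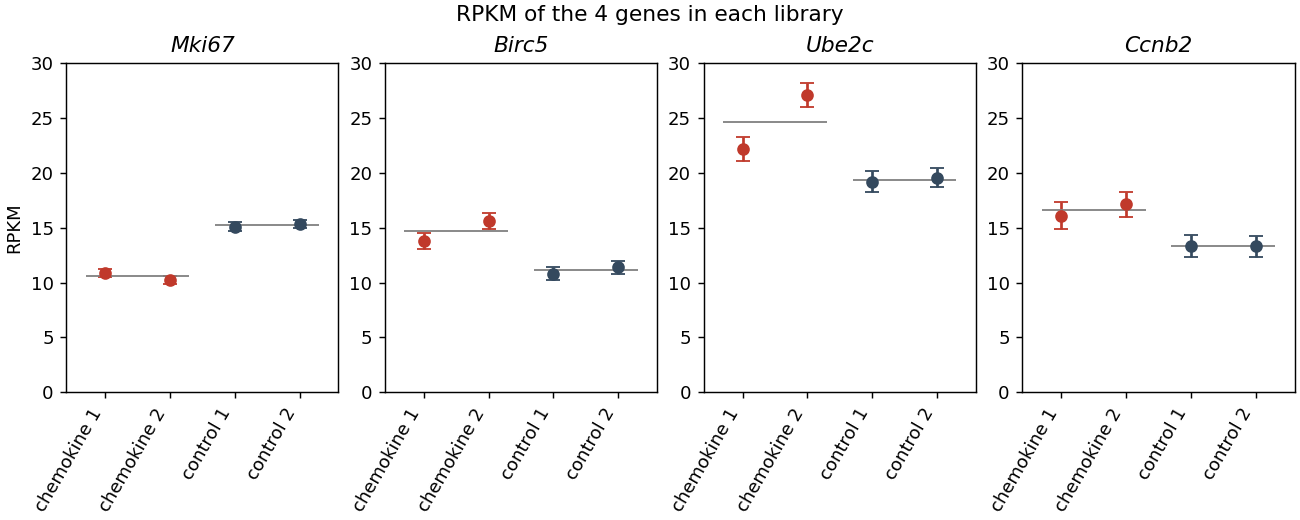
RPKM of Mki67, Birc5, Ube2c and Ccnb2 (vertical axes) in the chemokine libraries (red) and the control libraries (dark blue). Points are libraries, bars are 95% exact Poisson intervals of their reads, and grey lines are group means. Mki67 is lower in both chemokine libraries, and the other 3 genes are higher, with Ube2c at 27.1 RPKM in chemokine 2.

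These p-values cannot be read as a screen of all genes. The groups did not overlap in any of the 2979 genes of the authors' table (100%, with 42.4% higher and 57.6% lower in chemokine libraries), and 100% of the 2956 tested genes passed an adjusted p of 0.05 by limma, 42.8% higher and 57.2% lower in chemokine libraries. So passing the test is the background here, and only direction and size set genes apart. Among tested genes that fell, 12.7% fell by more than Mki67, on the log2 scale. Among those that rose, 26.1% rose by more than Birc5, 43.0% by more than Ube2c and 54.2% by more than Ccnb2, so the 3 rises were of ordinary size for this table. In a stricter limma test against a fold of 1.2, which 3.28% of tested genes passed as higher and 10.5% as lower, Mki67 passed (adjusted p = 0.0181) and Birc5, Ube2c and Ccnb2 did not (adjusted p = 0.203, 0.444 and 0.458). The authors' deposited table gave folds of 0.695 for Mki67, 1.32 for Birc5, 1.28 for Ube2c and 1.25 for Ccnb2.

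The reads behind these values were many. Every value in the table equals a whole number of reads, within 1e-05 of a read, over a length fixed per gene and a total fixed per library, and the implied totals lay between 28603764 and 36863654 reads. Mki67 had 3137 and 3487 reads in the chemokine libraries and 4844 and 5696 in the control libraries. Birc5 had 1338 and 1794 chemokine reads and 1173 and 1429 control reads, Ube2c 1649 and 2387 against 1590 and 1875, and Ccnb2 709 and 893 against 653 and 755. The 95% exact Poisson intervals of the chemokine libraries did not overlap those of the control libraries for any of the 4 genes. Those of chemokine 1 and chemokine 2 did not overlap each other for Ube2c, at 21.1 to 23.3 and 26.0 to 28.2 RPKM, or for Birc5, at 13.0 to 14.5 and 14.9 to 16.3 RPKM. The spread between chemokine replicates of these genes was thus wider than counting error, which is all that such intervals cover.

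Each gene lies on its own chromosome, and all 4 are protein-coding. In GRCm38, with the GENCODE M21 annotation, Mki67 (ENSMUSG00000031004) spans chr7:135689784-135716361 on the minus strand, with 14 separate exon blocks that sum to 10061 bases. Birc5 (ENSMUSG00000017716) spans chr11:117849251-117855743 on the plus strand, with 3402 exon bases. Ube2c (ENSMUSG00000001403) spans chr2:164769898-164778822 on the plus strand, with 2600 exon bases, and Ccnb2 (ENSMUSG00000032218) spans chr9:70407692-70421547 on the minus strand, with 1531 exon bases. The length implied by the values equals the annotated one for Birc5 and Ube2c. It is 10075 bases for Mki67 and 1541 for Ccnb2, and the reads of these 2 genes rest on that implied length.

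Reads of Ube2c could be shared with a neighbour. Of its exon bases, 592 (22.8%) also belong to Tnnc2, the troponin C gene of fast muscle, on the opposite strand, and the strand setting of the count is not given in the sources used here. Mki67, Birc5 and Ccnb2 share no exon base with another annotated gene. Of the 31-base words in their transcripts, 1.26% for Mki67, 5.03% for Birc5, 25.3% for Ube2c (most of them with Tnnc2) and 0% for Ccnb2 occur in transcripts of other genes.

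The rank of the 4 genes by RPKM, which is a level per gene length, differed between the groups. In both chemokine libraries the order was Ube2c, Ccnb2, Birc5 and Mki67, and in both control libraries it was Ube2c, Mki67, Ccnb2 and Birc5. Neighbours in either order did not overlap between libraries of a group, the closest being Ccnb2 and Birc5 in the chemokine group, with 16.1 RPKM as the lower Ccnb2 value and 15.6 RPKM as the higher Birc5 value. Mki67 was thus second among the 4 genes in control libraries and last in chemokine libraries.

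Ratios within a library restate the same split, independent of the library total but not of a trend with exon length. Mki67 has 10061 exon bases and the other 3 genes 1531 to 3402, and direction across the table went with length, as described below. The ratio of Ccnb2 to Mki67 was 1.48 and 1.67 in the chemokine libraries, against 0.881 and 0.867 in the control libraries. Birc5 over Mki67 was 1.26 and 1.52 in chemokine libraries, against 0.717 and 0.743 in control libraries, and Ube2c over Mki67 was 2.04 and 2.65 against 1.27 and 1.28. In all 3 ratios both chemokine libraries lay above both control libraries, by 0.85 ± 0.09 for Ccnb2, 0.93 ± 0.14 for Birc5 and 0.87 ± 0.19 for Ube2c on the log2 scale (SE). That separation was fixed once Mki67 was lower and the other 3 genes were higher in both chemokine libraries. It is therefore no evidence beyond those directions. The ratios among Birc5, Ube2c and Ccnb2 overlapped between the groups. Ube2c over Birc5 was 1.61 and 1.74 in chemokine libraries and 1.77 and 1.72 in control libraries. The log2 ratio, chemokine minus control, was -0.06 ± 0.06 for Ube2c over Birc5, 0.02 ± 0.10 for Ube2c over Ccnb2 and 0.08 ± 0.06 for Birc5 over Ccnb2 (SE). Exact two-sided permutation tests over the 6 ratios gave p = 0.333 for each of the 3 with Mki67, the smallest p that 2 against 2 libraries allow, and p = 0.667, 1 and 0.667 for the other 3. With Benjamini-Hochberg adjustment over the 6 exact tests these p-values became 0.667, 0.8, 1 and 0.8, so none passed.

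**Figure D2:**
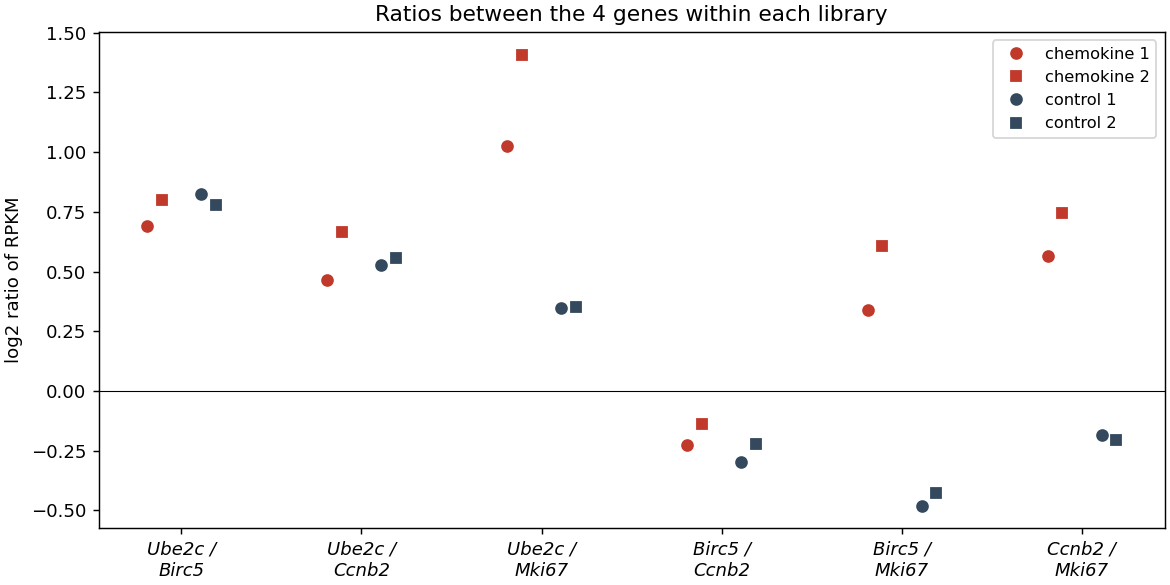
Log2 ratio of RPKM (vertical axis) for each pair of the 4 genes, within each chemokine library (red) and control library (dark blue). In the 3 ratios to Mki67 both chemokine libraries lie above both control libraries, which follows from the opposite directions of the genes. In the other 3 the groups overlap.

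Direction across the table went with exon length, and the 4 genes followed that pattern. Tested genes were put in 10 classes of nearly equal size by the annotated length of all exons together. Ccnb2 falls in the class of 1372 to 2084 bases, in which 97.3% of 294 genes were higher in chemokine libraries, with a median log2 fold change of 0.32. Ube2c falls in the class of 2088 to 3047 bases, in which 94.9% of 295 genes were higher (median 0.29). Birc5 falls in the class of 3048 to 4457 bases, in which 67.8% of 295 were higher (median 0.24). Mki67 falls in the class of 8322 to 10099 bases, in which 93.2% of 295 were lower (median -0.31). Each gene therefore moved as most genes of its length did. Birc5 sat in the most mixed of these 4 classes, and the size of the Mki67 change, -0.49, was beyond its class median.

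**Figure D3:**
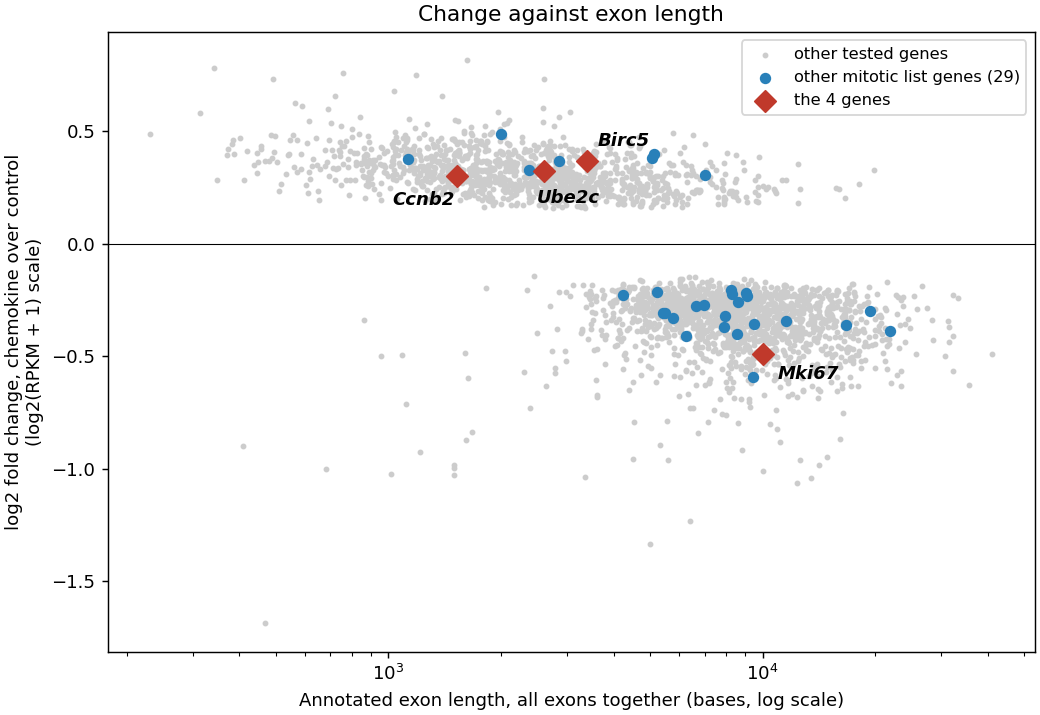
Log2 fold change, chemokine over control, on the log2(RPKM + 1) scale (vertical axis) against annotated exon length in bases (log scale) for the tested genes with an annotated length. Red diamonds are Mki67, Birc5, Ube2c and Ccnb2, and blue points are 29 other genes of 4 mitotic lists. Genes above 0 lie mostly at short lengths and those below 0 mostly at long lengths, and the 4 genes fall on either side accordingly.

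With the trend of fold change on exon length and GC content removed, Mki67 stayed lower at -0.17 ± 0.05 (SE, limma adjusted p = 0.0375) and Birc5 stayed higher at 0.28 ± 0.07 (SE, limma adjusted p = 0.0117). Ube2c, at 0.13 ± 0.08 (SE), and Ccnb2, at 0.0049 ± 0.05 (SE), no longer passed (limma adjusted p = 0.271 and 0.959). Under that removal 16.9% of 2953 genes passed as higher and 17.2% as lower. The trend was fitted on this selected table, in which the groups overlapped in no gene, and was subtracted as fixed values. SE and p-values with the trend removed, here and below, therefore leave out the uncertainty of that fit. The part of length in each gene's change was not tested further. Centring each library on its median moved all genes, since the median library level on the log2 scale was 0.10 lower in the chemokine group. Relative to that shift the log2 fold changes were -0.39 for Mki67, 0.47 for Birc5, 0.43 for Ube2c and 0.40 for Ccnb2, with no change of direction.

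**Figure D4:**
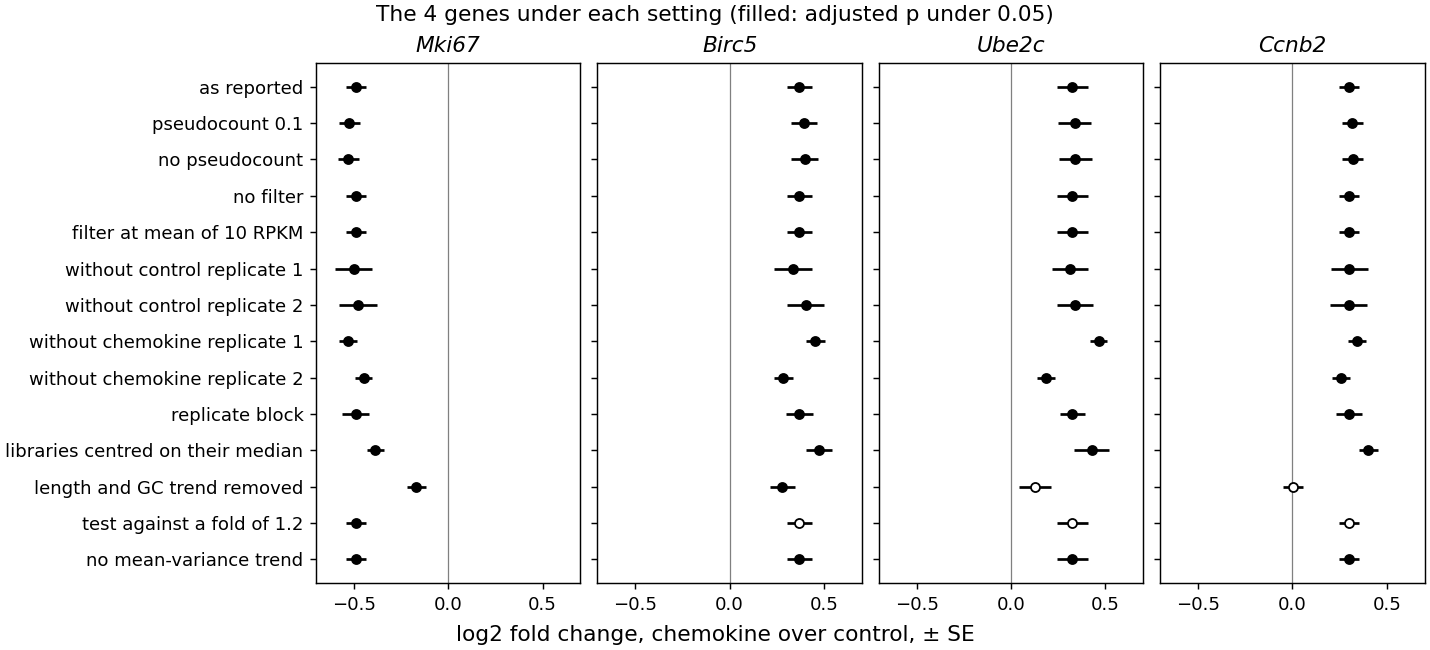
Log2 fold change, chemokine over control, ± SE (horizontal axes) of Mki67, Birc5, Ube2c and Ccnb2 as reported and under each alternative setting. Filled points have a limma adjusted p under 0.05. The sign of each gene's change is the same in every setting, but Ccnb2 comes to 0.0049 ± 0.05, less than its SE, once the length and GC trend is removed.

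The other mitotic genes of the table mostly fell, with the shorter ones on the side of Birc5, Ube2c and Ccnb2. Of 120 other genes in 4 lists of mitotic functions, 30 were in the table and 29 were tested, of which 7 rose and 22 fell (24.1% higher, against 42.8% of all tested genes). List sizes here and below count gene symbols, and a few genes stand under both an old and a new symbol. With genes of DNA replication and of the first gap phase added, 42 of 210 other genes were tested, of which 14 rose and 28 fell. The median log2 fold change of the 29 mitotic genes was -0.27, beside -0.23 over all tested genes. The 4 tested with under 4000 exon bases all rose, and of the 25 with 4000 or more 3 rose and 22 fell. Over all tested genes 92.7% of those under 4000 bases rose, and 13.6% of those at or above it. After removal of the length and GC trend, 5 of the 29 passed as higher and 6 as lower, with a median of 0.02, beside 0.0034 over all tested genes. Of all 2953 genes tested that way, 16.9% passed as higher and 17.2% as lower.

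The cyclin and mitotic kinase list holds Ccnb2 and Mki67 and was split. Of its 31 genes 5 were tested, of which 3 rose and 2 fell, where 42.8% of all tested genes rose and 57.2% fell. Besides Ccnb2, Cks1b, a small subunit of cyclin-dependent kinases, was at 72.4 and 80.9 RPKM in chemokine libraries and 59.8 and 57.4 RPKM in control libraries (log2 fold change 0.38 ± 0.06, SE). Bub3, of the spindle checkpoint, rose by 0.31 ± 0.05. Foxm1, the transcription factor that drives many mitotic genes, fell like Mki67, with 6.05 ± 0.0582 RPKM in chemokine libraries and 7.86 ± 0.518 RPKM in control libraries (SD, n = 2 each; log2 fold change -0.33 ± 0.06, SE). Bub3 rose and Foxm1 fell under the length and GC removal as well (0.54 and -0.21), and Cks1b did not pass (0.07).

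The list of the chromosomal passenger complex, kinetochore and spindle holds Birc5, and it mostly went the other way from it. Of 45 genes 12 were tested, of which 10 fell and only Birc5 and Cdca3 rose, in a table where 57.2% of all tested genes fell. The median exon length of the 12 was 8383.5 bases, and among all tested genes of 4000 bases or more 13.6% rose. With the length and GC trend removed 2 of the 12 passed as higher and 2 as lower, with a median of 0.0042. The shares over the whole table were 16.9% higher and 17.2% lower. Cdca3, a trigger of mitotic entry, measured 7.83 and 7.80 RPKM in chemokine libraries and 5.81 and 5.84 RPKM in control libraries (0.37 ± 0.05, SE). Casc5, the kinetochore scaffold also called KNL1, measured 1.49 and 1.43 RPKM in chemokine libraries and 2.25 RPKM in each control library (-0.40 ± 0.05). The microtubule regulators Clasp1 and Ckap5 had log2 fold changes of -0.39 ± 0.06 and -0.36 ± 0.05. Cdca3 (0.20) and Casc5 (-0.15) passed once the trend was removed, and Clasp1 (0.02) and Ckap5 (-0.05) did not. The other subunits of the passenger complex, Incenp, Cdca8 and Aurkb, were not analysed here, nor were Cdk1, Plk1 and Ccnb1.

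The anaphase-promoting complex list holds Ube2c, which rose, as did its partner enzyme Ube2s. Of 19 genes 6 were tested, of which 4 rose and 2 fell, where 42.8% of all tested genes rose and 57.2% fell. Ube2s, the enzyme that lengthens the ubiquitin chains Ube2c begins, measured 222 and 208 RPKM in chemokine libraries and 164 and 161 RPKM in control libraries (0.40 ± 0.05, SE). Anapc11, the catalytic RING subunit of the complex, measured 14.7 and 16.4 RPKM in chemokine libraries and 11.6 and 11.8 RPKM in control libraries (0.38 ± 0.06). The large subunits Cdc27 and Anapc1 fell, with log2 fold changes of -0.41 ± 0.05 and -0.36 ± 0.05. Ube2s (0.52), Anapc11 (0.45) and Cdc27 (-0.23) passed with the trend removed, and Ube2c (0.13) and Anapc1 (0.02), with 16714 exon bases, did not. Between the chemokine libraries Ube2s was higher in chemokine 1 and Ube2c in chemokine 2. Ube2s shares 3.56% of its exon bases with Rpl28.

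Of 29 genes of condensin, cohesin and chromosome separation 10 were tested, of which 1 rose and 9 fell, in a table where 57.2% of all tested genes fell. The median exon length of the 10 was 7257 bases, and among all tested genes of 4000 bases or more 13.6% rose. With the trend removed 1 of the 10 passed as higher and 2 as lower, where 16.9% of the whole table passed as higher and 17.2% as lower. Pttg1, or securin, which holds separase inactive until the anaphase-promoting complex destroys it, rose to 11.2 and 11.6 RPKM in chemokine libraries, against 7.90 and 7.78 RPKM in control libraries (0.49 ± 0.05, SE). Nipbl, the loader of cohesin, fell to 6.77 and 6.16 RPKM in chemokine libraries, against 10.1 and 10.4 RPKM in control libraries (-0.59 ± 0.06). The condensin subunits Ncapd3 and Smc2 had log2 fold changes of -0.37 ± 0.06 and -0.31 ± 0.06. Pttg1 (0.25) and Nipbl (-0.30) passed with the trend removed, and Ncapd3 (-0.10) and Smc2 (-0.17) did not.

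Of the few tested genes of the phases before mitosis, replication genes mostly rose and regulators of the first gap phase mostly fell. Of 56 genes of DNA replication and nucleotide synthesis 8 were tested, of which 6 rose and 2 fell, where 42.8% of all tested genes rose. With the length and GC trend removed 4 of the 8 passed as higher and 0 as lower, beside 16.9% and 17.2% of the whole table. Dut, which removes dUTP, and Tk1, thymidine kinase, rose by 0.36 ± 0.06 and 0.30 ± 0.05 (SE), as did Rfc2, of the clamp loader, by 0.28 ± 0.05. Pole, the catalytic subunit of DNA polymerase epsilon, with 11160 exon bases, fell (-0.29 ± 0.05). Tk1 (0.39) and Rfc2 (0.46) passed with the trend removed, and Dut (0.14) and Pole (0.04) did not. Of the 34 genes of the list of first gap phase cyclins, kinase inhibitors and the RB-E2F-DREAM axis 5 were tested. Of these 1 rose and 4 fell, where 57.2% of all tested genes fell. Their median exon length was 9009 bases, and among all tested genes of 4000 bases or more 13.6% rose. With the trend removed their median log2 fold change was 0.03. Ccnd2, a D-type cyclin, fell to 34.1 and 30.6 RPKM in chemokine libraries, against 47.2 RPKM in each control library (-0.53 ± 0.06). Its partner kinase Cdk6, the DREAM-promoting kinase Dyrk1a and the repressor E2f7 had log2 fold changes of -0.32 ± 0.05, -0.29 ± 0.05 and -0.27 ± 0.06. Of Ccnd2, Cdk6, Dyrk1a and E2f7 only Ccnd2 passed with the trend removed (-0.22). Rfc2 shares 15.1% of its exon bases with Lat2, and its reads are uncertain for that reason.

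**Figure D5:**
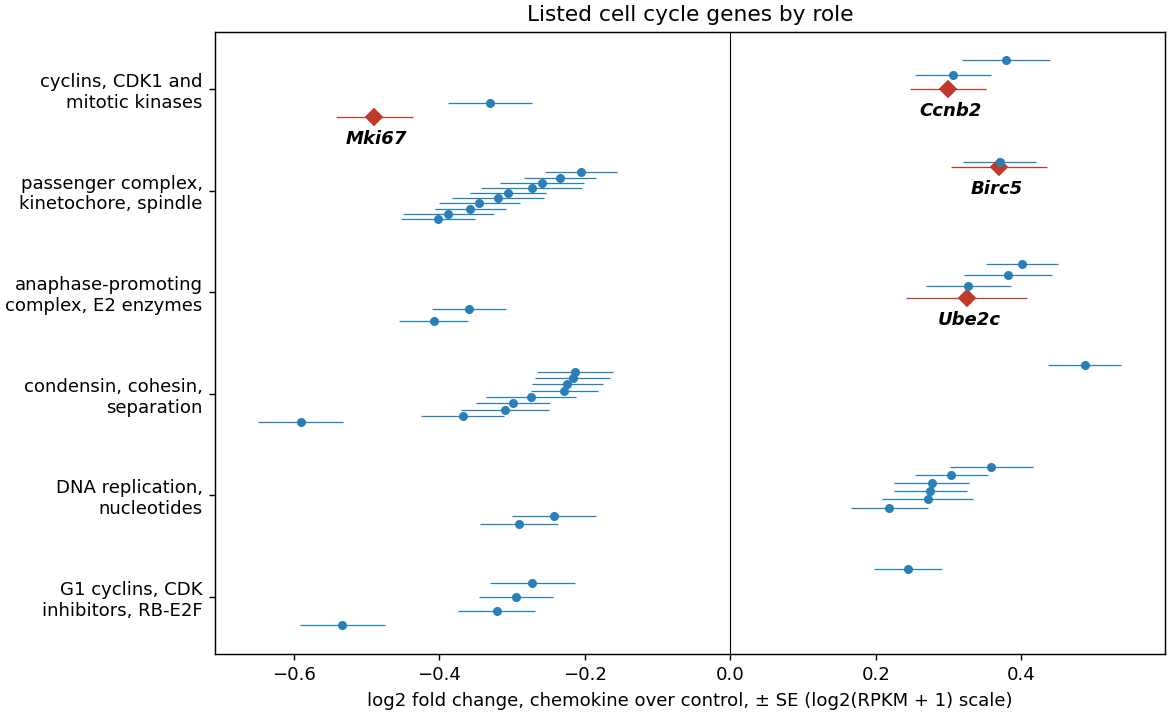
Log2 fold change, chemokine over control, ± SE (horizontal axis) of the tested genes of 6 cell cycle lists, grouped by role (rows). Red diamonds are Mki67, Birc5, Ube2c and Ccnb2. Mki67 lies at -0.49 in the same row as Ccnb2 at 0.30, and Birc5 lies opposite 10 of the other genes of its row.

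The protein families of the 4 genes were read the same way. Of 10 genes of the BIR domain family 4 were tested, and Birc5 was the one that rose, where 42.8% of all tested genes rose. Birc6, a giant ubiquitin ligase that blocks cell death, measured 3.58 and 3.40 RPKM in chemokine libraries and 5.21 and 5.39 RPKM in control libraries (-0.49 ± 0.05, SE). Xiap, an inhibitor of caspases, had a log2 fold change of -0.42 ± 0.06, and Naip2, an inflammasome sensor with close paralogs among which reads may be split, one of -0.34 ± 0.05. Birc6 has 25772 exon bases and Xiap 9469. With the trend removed Naip2 passed (-0.26), and Birc6 (-0.07) and Xiap (-0.15) did not.

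All 5 tested of 33 Ube2 ubiquitin-conjugating enzymes rose, and 4 of the 5 tested of 26 cyclins fell, where 42.8% of all tested genes rose and 57.2% fell. Without control 1, 4 of the 5 Ube2 enzymes passed as higher and 3 of the 5 cyclins as lower. Beside Ube2c and Ube2s, Ube2e3 and Ube2m, which conjugates NEDD8, rose by 0.25 ± 0.05 and 0.25 ± 0.05 (SE), and Ube2k by 0.21 ± 0.05. Ube2k, with 7892 exon bases, rose although 90.8% of the tested genes of its length class fell. Ube2s, Ube2e3 (0.29) and Ube2k (0.45) passed with the trend removed, and Ube2m (0.02) did not. Ccnb2 was the cyclin that rose. Beside Ccnd2, Ccnt2, a cyclin of transcription elongation, fell (-0.30 ± 0.05), as did Ccnyl1 (-0.21 ± 0.05) and Ccng1 (-0.18 ± 0.05). With libraries centred on their median 2 of these 4 cyclins passed as lower. Ccnyl1 (-0.28) and Ccng1 (-0.19) passed with the trend removed, and Ccnt2 (0.03) did not.

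None of the genes with the nearest profiles is on the cell cycle lists. Likeness was the root mean square distance over the 4 libraries between log2(RPKM + 1) values centred per gene, which is a description and not a test. Nearest to Mki67 were Eea1, Hipk1, Sipa1l1, Rprd2 and Crkl, at distances of 0.0058 to 0.0098, with exon lengths of 5042 to 12806 bases. Eea1, an endosome tether, was at 12.6 and 11.9 RPKM in chemokine libraries and 17.3 and 17.7 RPKM in control libraries. Nearest to Birc5 were Mrpl18, Mrps28, Rpl22, Ramp3 and Rnaset2b (0.0095 to 0.014), of which Mrpl18 and Mrps28 encode mitochondrial ribosomal proteins and Rpl22 a cytosolic one. Sft2d1, Gm9493, Lsm3, Sar1b and Sepw1 were nearest to Ube2c (0.0103 to 0.023), and Cwc15, Ubald2, Mettl23, Rabggtb and BC031181 were nearest to Ccnb2 (0.0065 to 0.0076). The mean profile of the 4 genes mixes opposite directions, and the nearest genes to it were Rbbp7, Phlda1, Bin1, Mcfd2 and Ak6 (0.025 to 0.029). Among the 4 genes themselves, Birc5 was 0.05 from Ube2c and 0.05 from Ccnb2, with 222 and 285 listed genes nearer to Birc5. Mki67 was 0.40 from Ccnb2, with 2281 listed genes nearer, 0.43 from Ube2c and 0.44 from Birc5.

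Marker genes were read for the label of lung fibroblasts and for other cells. Of 9 fibroblast markers 5 were in the table, of which 4 rose and 1 fell, where 42.8% of all tested genes rose. Their summed level was 1054 and 1011 RPKM in chemokine libraries and 1007 and 1020 RPKM in control libraries. That sum mixes opposite moves. The ratio of chemokine to control means was 0.65 for Fn1 and 1.13 to 1.32 for Col1a1, Col1a2, Col3a1 and Dcn. The 3 listed of 7 smooth muscle and pericyte markers summed to 2913 and 2963 RPKM in chemokine libraries and 2641 and 2581 RPKM in control libraries. Acta2, smooth muscle actin, made up most of that sum, and 2 of the 3 markers (Acta2 and Cnn1) rose while Myh11, at 12.0 and 10.2 RPKM in chemokine libraries and 14.4 and 14.0 RPKM in control libraries, fell. The 2 listed of 9 endothelial markers summed to 5.43 and 6.16 RPKM in chemokine libraries and 3.26 and 3.18 RPKM in control libraries. The 2 listed of 8 epithelial markers summed to 10.1 and 10.5 RPKM in chemokine libraries and 8.47 and 8.31 RPKM in control libraries. They went opposite ways, with ratios of chemokine to control means of 1.38 for Krt18, most of the sum, and 0.298 for Sftpb, which was under the filter. The markers named so far were singled out after their values were seen. The 1 listed of 8 macrophage markers was at 8.36 and 8.28 RPKM in chemokine libraries and 10.5 and 10.8 RPKM in control libraries. The endothelial, epithelial and smooth muscle sums were higher in both chemokine libraries than in both control libraries, and the macrophage marker was lower. Every gene of the table separated the groups, so sharing a direction with 1 of the 4 genes is the background here. With the length and GC trend removed 0 smooth muscle, 0 epithelial and 0 macrophage markers passed. The 2 endothelial markers passed as higher, and of the fibroblast markers 4 passed as higher and 1 as lower. The part of these cell types in the results was not tested. Markers of neutrophils, lymphocytes, eosinophils and mast cells, mesothelium and red cells were not analysed here.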

How the data were processed

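The 4 libraries of mouse lung fibroblasts were compared, 2 with chemokines and 2 controls. TopHat2 2.0.7, DESeq2 and the genome GRCm38 (mm10) are named in the submitters' processing notes, which state neither role nor order. The deposited table holds 1 RPKM value per gene and library, a unit the authors did not name and that was worked out from the values, and 1 fold, the authors' linear ratio of chemokine over control. How the 2979 genes were selected, the annotation release, the counter and the strand setting are not stated in the labels or the file header. Library totals and reads were recovered by writing RPKM times annotated exon length as a fraction.

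Values were tested by limma 3.58.1 in R 4.3.3, with prior variance following mean level, on log2(RPKM + 1), in the 2956 genes averaging at least 1 RPKM, two-sided, with Benjamini-Hochberg adjustment over all of them at a threshold of 0.05. Fold changes on this scale understate those of low genes. The length and GC trend was a loess surface with a span of 0.5 over the tested genes with annotation, and its fitted values were subtracted from the chemokine libraries. The script was tested on simulated data. Exact permutation tests used scipy 1.17.1. Promoter sequences are from RefSeq, and exons and GC content from GENCODE M21. The 4 genes and the lists were chosen with earlier results of these data known. From each list up to 4 other tested genes were named, by size of change, and the 5 nearest profiles per gene. Genes are spelled as in the table. Alternatives changed the pseudocount, filter, scaling, block, replicates, length and GC trend, fold threshold and variance trend.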

Additional observations from a re-analysis of the deposited data

How the results depend on the processing

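Mki67 stayed lower and Birc5, Ube2c and Ccnb2 stayed higher in the chemokine libraries under every alternative run. The number of genes called was 1789 with a filter at a mean of 10 RPKM, since fewer genes were tested, 1007 after removal of the length and GC trend and 407 in the test against a fold of 1.2. With the trend removed Ube2c (0.13) and Ccnb2 (0.0049) no longer passed, and against a fold of 1.2 Birc5 (0.37), Ube2c (0.32) and Ccnb2 (0.30) did not. Of the other mitotic genes 4 rose and 10 fell with the filter at 10 RPKM, 5 rose and 6 fell with the trend removed, and 1 rose and 1 fell against a fold of 1.2. Over all 6 cell cycle lists 9 rose and 11 fell with that filter, 9 and 7 with the trend removed, and 1 and 2 against a fold of 1.2. Of all genes tested with that filter 61.4% were higher. Of all genes tested with the trend removed 16.9% passed as higher and 17.2% as lower. Against a fold of 1.2 these shares were 3.28% and 10.5%. For the trend removal the cause was not tested. Leaving out 1 library at a time, where a lone library is assumed to vary like the others, gave 2791 to 2956 calls and log2 fold changes of -0.53 to -0.45 for Mki67, 0.29 to 0.45 for Birc5, 0.19 to 0.46 for Ube2c and 0.26 to 0.34 for Ccnb2, all past the threshold. The log2 ratio of Ube2c to Ccnb2, chemokine minus control, ranged from -0.080 to 0.12 and turned without chemokine 2.

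With the replicate number as a block, 2956 genes were called and no call changed. The numbers are not stated to mark a shared mouse or day, and the deviations of same-numbered libraries from their group means were weakly and negatively correlated (Pearson's r = -0.16 across 2956 genes, which are not independent). A crossed pairing, added after seeing the data, called 2956 genes.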
